A study of Mus musculus with 12 samples.

Results

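Fibulins, fibrillins and the proteins built around them were examined in EGFRvIII-driven mouse gliomas that differ in how strongly the receptor is phosphorylated. The family was defined by name as 10 genes, Fbln1, Fbln2, Fbln5, Efemp1, Efemp2, Fbn1, Fbn2, Ltbp1, Ltbp3 and Eln, and a gene was measured by the probe set that the array annotation pairs with its symbol alone. Of the 10 genes, 8 were measured among 19938 genes on the array, and Efemp2 and Fbn1 were not analysed here. Where a gene has several probe sets, the brightest was selected on its mean over all 12 arrays. Each of the 8 genes had 1 probe set, so no measured value decided between probe sets. The names were listed with earlier results of the same contrast known, so the differences below describe these genes and are no independent evidence on the family.

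ZsGreen-tagged tumor cells were sorted from brains of 12 FVB mice, 6 per tumor type (pEGFR-Hi or pEGFR-Lo), and the RNA of each mouse was run on its own array. Both tumor types began as neural progenitor cells that are null for Ink4a/Arf and carry EGFRvIII, a truncated and constitutively active form of the epidermal growth factor receptor, and both were grown in defined medium and injected into the brain as 2 µl at 200000 cells per µl. The pEGFR-Hi cells have high and the pEGFR-Lo cells low EGFRvIII activity, and the comparison asks which genes differ with that activity in tumors grown in vivo. Brains were taken near the median survival of each tumor type, dissociated with papain, cleared of myelin and red blood cells on Percoll, and sorted with DAPI to leave out dead cells. Each group comes from 1 tumor line, so tumor line, EGFRvIII activity and time since injection cannot be told apart. The p-values set the difference between these 2 lines against the spread among mice of a line, not among lines of like activity.

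Fibrillins polymerise into microfibrils in the extracellular matrix, and elastin is deposited on these and cross-linked by lysyl oxidases into elastic fibers. Fibulins are secreted glycoproteins that bridge fibrillin, tropoelastin, fibronectin, basement membrane proteins and proteoglycans, and the latent TGF-beta binding proteins hold TGF-beta in the matrix in an inactive form. In the brain, elastic fibers are mainly a feature of vessel walls and meninges, while the parenchyma is rich in hyaluronan and chondroitin sulfate proteoglycans such as versican and neurocan.

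The proximal promoters of Fbln2 and Ltbp1 are shown because these are the members called different between the tumor types for which a promoter entry was at hand. Each window runs from 250 bases before to 50 bases after an annotated transcription start, 5′ to 3′ on the gene's strand, from RefSeq on GRCm38.p6, and capitals mark letters of the motifs searched. Windows of 1 chromosome were not used here, so that all windows below means those of the other chromosomes. Of the 8 measured genes, 6 had an entry among the windows used, with 9 windows in all. Eln and Fbn2 had none among them. Both genes lie on the plus strand, the windows being chr6:91212514-91212813 for Fbln2, chr17:75005279-75005578 for the upstream start of Ltbp1 and chr17:75178531-75178830 for the downstream start of Ltbp1, which lies 173252 bases farther along.
Fbln2: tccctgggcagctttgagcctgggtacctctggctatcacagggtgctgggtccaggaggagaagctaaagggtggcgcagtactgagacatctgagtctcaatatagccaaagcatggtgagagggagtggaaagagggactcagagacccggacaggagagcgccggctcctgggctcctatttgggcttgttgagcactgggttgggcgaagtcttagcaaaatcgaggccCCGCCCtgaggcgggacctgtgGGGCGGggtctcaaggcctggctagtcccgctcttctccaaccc
Ltbp1 upstream start: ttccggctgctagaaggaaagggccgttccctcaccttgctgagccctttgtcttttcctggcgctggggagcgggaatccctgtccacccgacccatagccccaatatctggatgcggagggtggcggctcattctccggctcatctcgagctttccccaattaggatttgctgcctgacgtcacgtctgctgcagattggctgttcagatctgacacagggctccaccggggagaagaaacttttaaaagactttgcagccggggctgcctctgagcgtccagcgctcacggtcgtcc
Ltbp1 downstream start: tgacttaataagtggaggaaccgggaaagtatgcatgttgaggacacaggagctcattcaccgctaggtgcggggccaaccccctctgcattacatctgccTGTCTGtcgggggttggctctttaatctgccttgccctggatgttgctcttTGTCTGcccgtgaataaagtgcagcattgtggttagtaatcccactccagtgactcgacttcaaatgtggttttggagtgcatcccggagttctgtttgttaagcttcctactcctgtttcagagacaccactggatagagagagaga
The Fbln2 window was 60.3% G or C and held 10 CpG dinucleotides, against a median of 52.7% and 7 over the 32851 promoter windows used. It matched the GC box letters GGGCGG at 2 places, 1 on each strand, and 35.7% of all windows hold that motif. The upstream Ltbp1 window had 58.7% G or C, 17 CpG dinucleotides and no motif match, whereas the downstream one had 7 CpG dinucleotides and 2 matches to the SMAD letters CAGACA, both on the minus strand, a motif held by 21.0% of all windows. The other motifs searched on both strands were TATAAA (in 13.6% of all windows), the AP-1 letters TGANTCA (7.81%), the STAT letters TTCNNNGAA (8.3%) and the E-box CACGTG (7.15%). None of these 4 matched in the Fbln2 and Ltbp1 windows shown. The array does not report which Ltbp1 start was used.

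Values are log2 probe set signals that the authors normalised to 1 distribution across arrays, so changes in how much RNA a cell holds are not visible, and the levels of different genes are not compared. Background was set at 4.10, below which 95% of 1027 olfactory receptor genes had their mean. By that level, 13783 of the 19938 genes were above background in at least 1 group. Groups were compared with limma over all 19938 genes, and a gene was called where its p, adjusted by the Benjamini-Hochberg method, was under 0.01 and the groups differed 2-fold or more. As a check of the sorted cells, all 9 neural progenitor markers measured were above background in at least 1 group, and their mean lay between 8.75 and 8.94 in pEGFR-Hi and between 8.58 and 8.77 in pEGFR-Lo mice. The smooth muscle and pericyte markers averaged 4.58 to 4.95 in pEGFR-Hi and 4.84 to 5.19 in pEGFR-Lo mice (11 of 12 above background in a group). Their median log2 difference, pEGFR-Hi minus pEGFR-Lo, was −0.03, and Rgs5 was the only 1 of them called. The fibroblast and meningeal markers averaged 3.78 to 4.16 in pEGFR-Hi and 3.84 to 4.02 in pEGFR-Lo mice (6 of 12). Endothelial markers averaged 3.50 to 3.85 in pEGFR-Hi and 3.64 to 3.85 in pEGFR-Lo mice (4 of 11 above background in a group). In sorted bulk RNA, fewer cells of a type and less RNA per cell cannot be told apart. One pair of libraries stood apart: over 11 interferon-stimulated genes, pEGFR-Lo replicates 3 and 6 had means of 5.37 and 5.26, against 6.66 to 7.26 in the other pEGFR-Lo mice and 8.05 to 9.30 in the pEGFR-Hi mice.

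**Figure D1:**
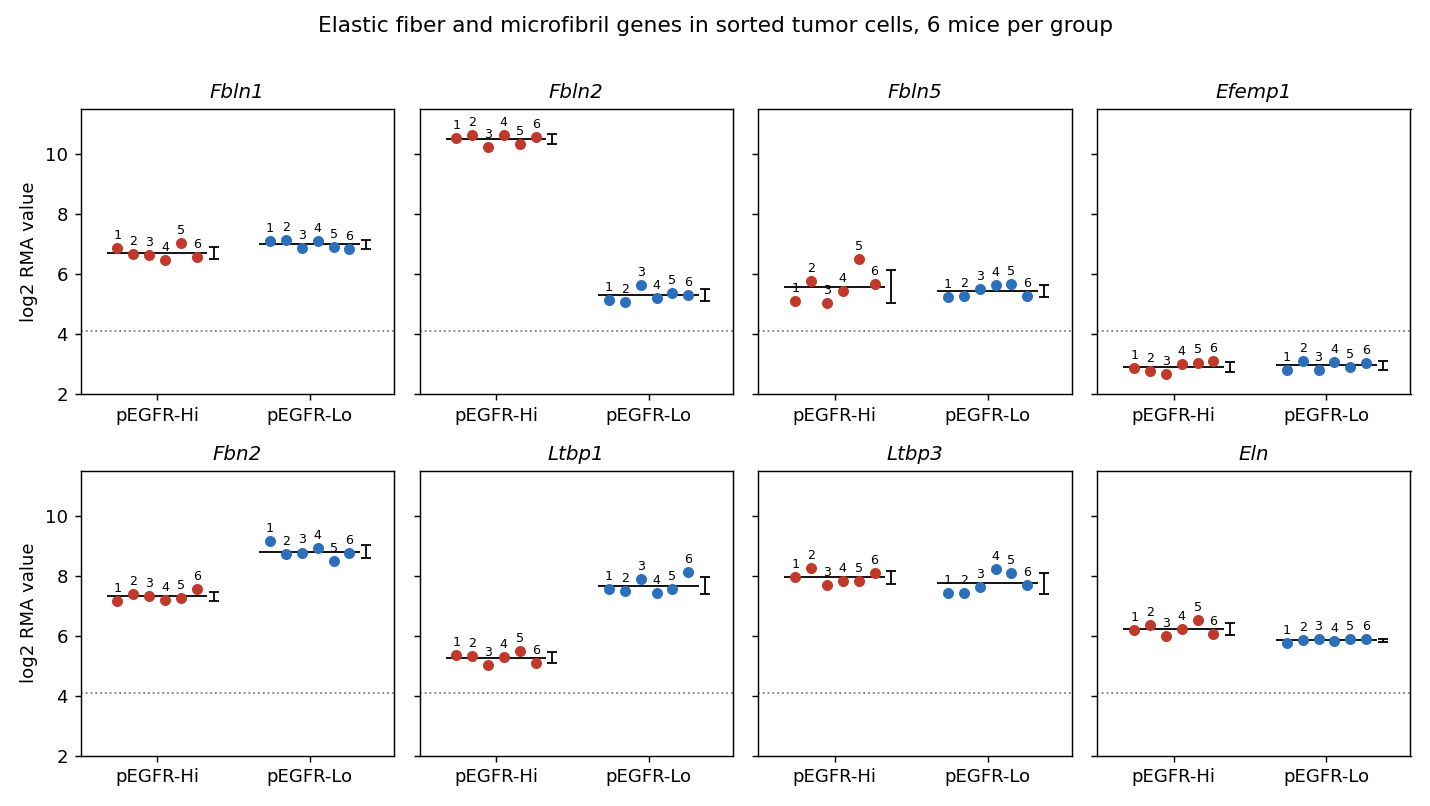
Log2 signal of the 8 measured genes in each mouse (points numbered by replicate, 6 pEGFR-Hi and 6 pEGFR-Lo), with the group mean and SD beside the points and the background level of 4.10 as a dotted line. Fbln2 lies above 10 in the pEGFR-Hi mice and below 6 in the pEGFR-Lo mice, Fbn2 and Ltbp1 are lower in all pEGFR-Hi mice, and Efemp1 lies below background throughout.

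Fibulin-2 RNA was far more abundant in pEGFR-Hi tumor cells. Fbln2 encodes a large fibulin of basement membranes and fibronectin networks that also binds the versican and nidogen families. Its log2 signal ran from 10.24 to 10.65 with a median of 10.56 in the pEGFR-Hi mice, and from 5.06 to 5.63 with a median of 5.26 in the pEGFR-Lo mice. The lowest pEGFR-Hi mouse lay 4.61 above the highest pEGFR-Lo mouse, a gap many times the range within either group, and the pEGFR-Lo mice were all above background. The means were 10.50 ± 0.17 and 5.29 ± 0.20 (SD, n = 6 each), a difference of 5.21 on the log2 scale (95% interval 4.98 to 5.43), or 36.9-fold (31.6 to 43.1), with a limma adjusted p of 5.65e-14. Leaving out any 1 mouse moved the difference between 5.16 and 5.28.

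The other fibulins measured did not share that difference in size. Fbln1, a fibulin of basement membranes and fibronectin-containing matrix, ran from 6.46 to 7.04 (median 6.65) in pEGFR-Hi and from 6.84 to 7.15 (median 6.999) in pEGFR-Lo mice. The groups overlapped, with the higher values mostly in pEGFR-Lo. Its difference was −0.29 (95% interval −0.51 to −0.07, limma adjusted p = 0.0379), or 1.22-fold lower in pEGFR-Hi, and it was not called. Fbln5, an integrin-binding fibulin required for elastic fiber assembly, ran from 5.05 to 6.50 (median 5.55) in pEGFR-Hi and from 5.22 to 5.68 (median 5.38) in pEGFR-Lo mice. The whole pEGFR-Lo range lay inside the pEGFR-Hi range, and a single mouse, pEGFR-Hi replicate 5, gave the top value. The Fbln5 difference was 0.16 (95% interval −0.26 to 0.58, limma adjusted p = 0.6), and without that mouse it was −0.023. Efemp1, which encodes fibulin-3, ran from 2.65 to 3.09 (median 2.93) and from 2.79 to 3.11 (median 2.98), so that every mouse of both groups lay below background and the 2 groups covered almost the same range. Its log2 difference was −0.05 (95% interval −0.25 to 0.15, limma adjusted p = 0.756), and no fold is given for values below background.

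Fibrillin-2 and latent TGF-beta binding protein 1 went the other way. Fbn2 encodes a fibrillin used mainly in developing microfibrils. It ran from 7.16 to 7.56 (median 7.29) in pEGFR-Hi and from 8.49 to 9.14 (median 8.76) in pEGFR-Lo mice. All pEGFR-Hi mice were below all pEGFR-Lo mice, with 0.93 between the nearest values. The means were 7.32 ± 0.15 and 8.80 ± 0.22 (SD, n = 6 each), and the difference of −1.48 (95% interval −1.70 to −1.26) was 2.79-fold, with a limma adjusted p of 1.5e-08.

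Ltbp1, which tethers latent TGF-beta to fibronectin and fibrillin, ran from 5.02 to 5.49 (median 5.31) in pEGFR-Hi and from 7.42 to 8.12 (median 7.55) in pEGFR-Lo mice. The groups were separated by 1.93. The pair of pEGFR-Lo mice low in interferon-stimulated genes, replicates 3 and 6, had the highest Ltbp1 values of their group, 7.89 and 8.12, and the other 4 lay between 7.42 and 7.56. The means were 5.27 ± 0.18 and 7.67 ± 0.27 (SD, n = 6 each), a difference of −2.40 (95% interval −2.67 to −2.14), 5.29-fold lower in pEGFR-Hi with a limma adjusted p of 3.69e-10. Without pEGFR-Lo replicates 3 and 6 the difference was −2.24 (adjusted p = 1.62e-09), and over all alternatives run it lay between −2.45 and −2.24. Leaving the same pair out gave 5.30 for Fbln2 and −1.499 for Fbn2. Ltbp3, a related binding protein that also carries latent TGF-beta, ran from 7.69 to 8.26 (median 7.90) in pEGFR-Hi and from 7.41 to 8.22 (median 7.66) in pEGFR-Lo mice. These ranges overlapped for most of their length, and the difference was 0.20 (95% interval −0.11 to 0.51, limma adjusted p = 0.327), an interval whose ends are both under 2-fold.

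Eln encodes tropoelastin, the soluble precursor of elastin. Its signal ran from 5.99 to 6.52 (median 6.22) in pEGFR-Hi and from 5.76 to 5.90 (median 5.86) in pEGFR-Lo mice. The groups did not overlap, though only 0.09 separated the nearest mice, and the pEGFR-Lo values were tightly packed. The means were 6.23 ± 0.19 and 5.85 ± 0.05 (SD, n = 6 each). The difference of 0.38 (95% interval 0.19 to 0.57) had a limma adjusted p of 0.0028 and was 1.30-fold, under the 2-fold limit, so Eln was not called. Without pEGFR-Lo replicates 3 and 6 it was 0.41.

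**Figure D2:**
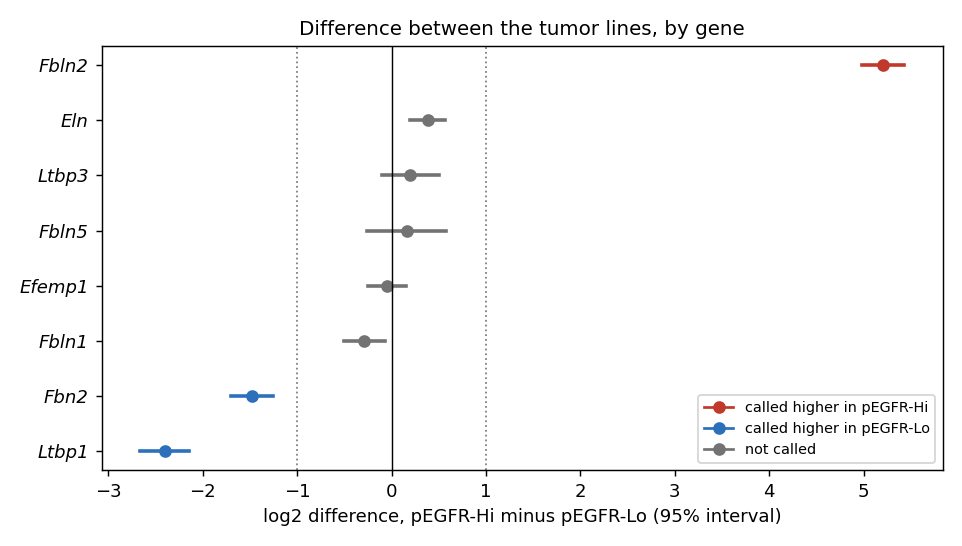
Difference (log2, pEGFR-Hi minus pEGFR-Lo) for the 8 measured genes (points), with 95% intervals from limma (n = 6 mice per group) and dotted lines at 2-fold in each direction. Fbln2 stands at 5.21, Ltbp1 and Fbn2 at −2.40 and −1.48, and the intervals of the other 5 lie inside the 2-fold lines.

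In all, 1 of the 8 genes was called higher in pEGFR-Hi (Fbln2), against 3.99% of all genes, and 2 were called higher in pEGFR-Lo (Fbn2 and Ltbp1), against 5.06% of all genes. The other 5 genes were not called, with differences of 1.12-fold to 1.30-fold for the 4 of them above background. The groups did not overlap in 4 of the 8 genes (Fbln2, Fbn2, Ltbp1 and Eln), and 23.3% of all genes had groups that did not overlap. The median difference of the 8 genes was 0.06 on the log2 scale, beside 0.01 over all genes. Since the genes were listed with this contrast known, nothing is read from these shares about the family.

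Among mice of 1 tumor type the genes also varied, and pEGFR-Hi replicate 5 stood at the top for 4 of the 8, namely Fbln1, Fbln5, Ltbp1 and Eln. The share of all genes that were highest in this mouse is not given here, so nothing is read from that count. Its mean over all genes was also the highest of the pEGFR-Hi mice, 5.61 against 5.59 in the lowest. So was its mean of the interferon-stimulated genes, 9.30 against 8.05 to 8.85. Relative to the pEGFR-Hi mean this mouse was higher by 0.91 for Fbln5, 0.33 for Fbln1, 0.29 for Eln and 0.23 for Ltbp1 on the log2 scale. The same mouse had the highest mean of the smooth muscle and pericyte markers among pEGFR-Hi mice, 4.95 against 4.58 to 4.83, and of the fibroblast and meningeal markers, 4.16 against 3.78 to 3.95. Of the 12 smooth muscle and pericyte markers, 9 lay above their pEGFR-Hi mean in this mouse and 3 were highest in it, with deviations from −0.32 for Cspg4 to 1.02 for Acta2. Of the 12 fibroblast and meningeal markers, 10 lay above the mean and 7 were highest in it, from −0.16 for Dpt to 0.97 for Dcn (these genes are named as the extremes of their lists, after their values were seen). By their group means, 6 of these 12 were below background in both groups, Dpt and Dcn among them. In the other lists, 7 of 11 endothelial, 6 of 10 microglia and 4 of 10 mature neuron markers lay above the mean in it. So did 6 of 7 oligodendrocyte and 6 of 9 neural progenitor markers. The mean of the progenitor markers was also highest in this mouse, at 8.94. The part of any of these markers, or of the interferon-stimulated genes, in the Fbln5 value was not tested. Fbln2 was not among the genes that were highest in this mouse: its 10.35 there was among the lower pEGFR-Hi values. The residual SD of Fbln5 was at percentile 96.4 of all genes and that of Eln at percentile 23.4, the extremes among the 8.

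**Figure D3:**
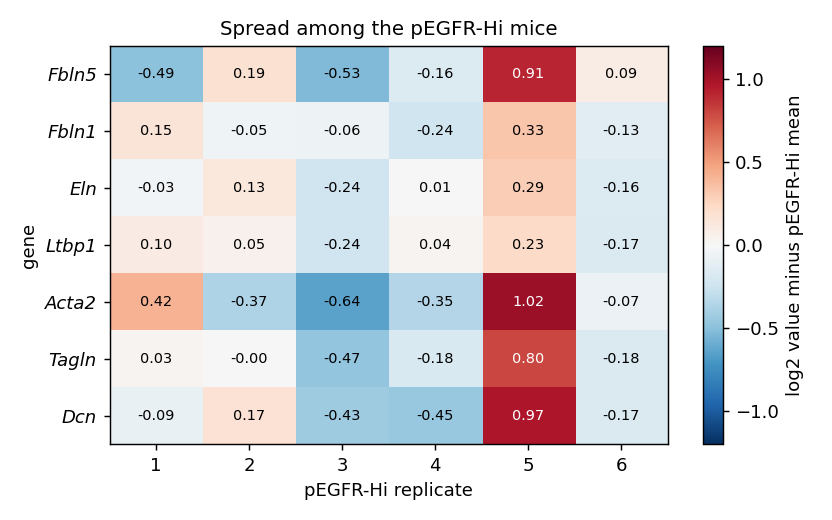
Deviation of each pEGFR-Hi mouse from the pEGFR-Hi mean on the log2 scale for Fbln5, Fbln1, Eln, Ltbp1 and the marker genes Acta2, Tagln and Dcn (chosen after their values were seen, as markers high in replicate 5). The 4 family genes shown are those that were highest in replicate 5, so its top place for all 7 genes follows from the choice. Its deviations run from 0.23 for Ltbp1 to 1.02 for Acta2. The mean of Dcn was below background in both groups (3.37 in pEGFR-Hi and 3.11 in pEGFR-Lo).

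Genes that work with the family were taken from 5 lists, which were also drawn up with earlier results known. Of 70 genes measured in them, 6 were called higher in pEGFR-Hi, 9 higher in pEGFR-Lo and 55 in neither direction. Over all genes, 3.99% were called higher in pEGFR-Hi and 5.06% higher in pEGFR-Lo. Given how the lists were drawn up, nothing is read from these shares. The median difference of the 70 genes was −0.06. Among 16 other microfibril and elastic fiber genes 2 were called with more RNA in pEGFR-Hi and 3 with more in pEGFR-Lo (median −0.11). Fbln7, the short fibulin-7, was 3.12-fold higher in pEGFR-Hi (6.73 ± 0.21 against 5.09 ± 0.41, limma adjusted p = 7.43e-07). Emilin1 and Emilin2, paired glycoproteins of the elastin and microfibril interface, went in opposite directions. Emilin2 was 2.31-fold higher in pEGFR-Hi (5.67 ± 0.25 against 4.46 ± 0.17; adjusted p = 5.2e-07), and Emilin1 was 2.33-fold higher in pEGFR-Lo (6.45 ± 0.18 against 5.23 ± 0.22; adjusted p = 2.31e-07). Mfap4, a microfibril-associated protein, was 3.32-fold higher in pEGFR-Lo (7.90 ± 0.51 against 6.17 ± 0.33, adjusted p = 5.36e-06).

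Hmcn1, which encodes hemicentin-1 or fibulin-6, was the most variable of these genes. It ran from 3.50 to 6.89 (median 4.80) in pEGFR-Hi and from 6.24 to 9.74 (median 8.47) in pEGFR-Lo mice, so the groups overlapped. It was 8.03-fold higher in pEGFR-Lo by the means (limma adjusted p = 7.79e-04, and 0.00696 without pEGFR-Lo replicates 3 and 6). The pEGFR-Lo mice with the lowest Hmcn1 values, replicates 5 and 4 at 6.24 and 7.24, were also lowest for the pericyte gene Rgs5, at 5.72 and 6.44 against 7.79 to 8.80 in the other 4. The Rgs5 mean was 7.59 ± 1.24 in pEGFR-Lo and 3.97 in pEGFR-Hi, the second below background. That is a difference of at least 11.2-fold (limma adjusted p = 4.25e-06). Of the 12 smooth muscle and pericyte markers Rgs5 was the only 1 called, and the median difference of that list was −0.03. The list was mixed among pEGFR-Lo mice, by genes chosen after their values were seen. Acta2 and Vtn were highest in pEGFR-Lo replicate 5 (7.39 and 4.38). Kcnj8 was lowest in pEGFR-Lo replicate 4 and next lowest in replicate 5 (3.55 and 4.09). The part of Rgs5 in the Hmcn1 values was not tested.

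Of 16 elastin cross-linking and microfibril assembly enzymes measured, 0 were called in either direction by limma or by SAM, while at an unadjusted p under 0.05 limma placed 3 higher in pEGFR-Hi and 2 higher in pEGFR-Lo, beside 23.0% and 19.8% of all genes (median −0.01). Leaving out pEGFR-Hi replicate 4, pEGFR-Hi replicate 6 or pEGFR-Lo replicate 1 raised the count in pEGFR-Hi to 1. Adamts6 and Loxl1 were chosen after their values were seen. Adamts6, a microfibril-binding protease family member, had a difference of 0.96 (1.94-fold, limma adjusted p = 9.65e-04). Loxl1, a lysyl oxidase that acts on elastin, had one of −0.89 (1.85-fold, adjusted p = 1.83e-04, groups not overlapping). Both were just under the 2-fold limit. Lox was below background in every mouse. Loxl2 and Fkbp10 were not analysed here.

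TGF-beta genes split by ligand. Of 14 ligands, latency proteins, integrins and receptors measured, 2 were called higher in pEGFR-Hi and 2 higher in pEGFR-Lo (median −0.11). Tgfb1 was 2.18-fold higher in pEGFR-Hi (6.50 ± 0.43 against 5.38 ± 0.11, limma adjusted p = 3.06e-05) and Tgfb3 2.46-fold higher in pEGFR-Hi (6.30 ± 0.20 against 4.999 ± 0.41; adjusted p = 7.19e-06). Tgfb2 was 3.28-fold higher in pEGFR-Lo (6.75 ± 0.76 against 5.03 ± 0.10; adjusted p = 6.31e-05), and its lowest pEGFR-Lo mice were again replicates 5 and 4, at 5.64 and 6.07. Itgav, the integrin alpha-v chain of receptors that release TGF-beta from its latent complex, was 2.47-fold higher in pEGFR-Lo (9.57 ± 0.23 against 8.27 ± 0.09; adjusted p = 4.73e-08). So the ligands Tgfb1 and Tgfb3 were higher in the tumor type in which Ltbp1 was lower.

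Of 14 partners of fibulins and fibrillins measured, 1 was called higher in pEGFR-Hi, 3 higher in pEGFR-Lo and 10 in neither direction (median −0.13). Fn1, encoding fibronectin, was the 1 called higher in pEGFR-Hi, at 8.89 ± 0.22 against 6.33 ± 0.33 (5.88-fold, limma adjusted p = 1.05e-09). The lectican Vcan was 10.2-fold higher in pEGFR-Lo (10.95 ± 0.20 against 7.60 ± 0.31; adjusted p = 2.92e-11) and the lectican Ncan 3.85-fold (9.01 ± 0.37 against 7.06 ± 0.60; adjusted p = 7.63e-06). Bgn, encoding the small proteoglycan biglycan, was 20.5-fold higher in pEGFR-Lo (10.09 ± 0.46 against 5.73 ± 0.59; adjusted p = 1.53e-09). Fbln2 and Fn1 were thus both higher in pEGFR-Hi, where Vcan, Ncan and Bgn were lower.

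Among 10 elastin-degrading and related proteases, 1 was called in each direction (median −0.04). Mmp14, a membrane-bound metalloprotease that activates pro-MMP2, was 5.41-fold higher in pEGFR-Hi (6.89 ± 0.51 against 4.45 ± 0.18, limma adjusted p = 4.2e-08). Mmp2, the secreted gelatinase A, was 10.6-fold higher in pEGFR-Lo (7.61 ± 0.54 against 4.21 ± 0.18; adjusted p = 1.4e-09). The pEGFR-Hi mean of Mmp2 was just above the background of 4.10 and below the level of 4.85 that the 99th percentile of olfactory receptor means gives, and the pEGFR-Lo mean of Mmp14 was also below 4.85. The protease and the zymogen it activates thus had opposite directions.

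Of the markers of other cells, 2 lists held a called gene, both higher in pEGFR-Lo. These were Rgs5, given above, and P2ry12, a microglial receptor gene, 3.36-fold higher in pEGFR-Lo (6.43 ± 0.41 against 4.69 ± 0.46, limma adjusted p = 6.11e-06). The other 9 microglia markers were not called, and the median difference of that list was −0.13. Microglia markers averaged 3.82 to 4.05 in pEGFR-Hi and 3.96 to 4.45 in pEGFR-Lo mice (6 of 10 above background in a group), and mature neuron markers 3.96 to 4.004 and 4.06 to 4.42 (6 of 10). Oligodendrocyte markers averaged 3.90 to 4.05 and 3.90 to 4.35 (3 of 7). Leaving out 1 mouse added 1 fibroblast gene (pEGFR-Hi replicate 1, pEGFR-Lo replicate 4 or pEGFR-Lo replicate 5) or 1 endothelial gene (pEGFR-Lo replicate 4 or 5) to those called higher in pEGFR-Lo. The part of these cells in the genes higher in pEGFR-Lo, Fbn2 and Ltbp1 included, was not tested. Of the neural progenitor markers, Prom1 was higher in pEGFR-Hi by at least 3.58-fold (5.94 ± 0.24, the pEGFR-Lo mean being below background; adjusted p = 7.21e-09) and Fabp7 was 2.58-fold higher in pEGFR-Lo (12.08 ± 0.11 against 10.72 ± 0.53; adjusted p = 2.23e-05). Without pEGFR-Hi replicate 1, pEGFR-Lo replicate 1, pEGFR-Lo replicate 2 or pEGFR-Lo replicate 5, the progenitor markers called higher in pEGFR-Hi numbered 2 in place of 1.

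**Figure D4:**
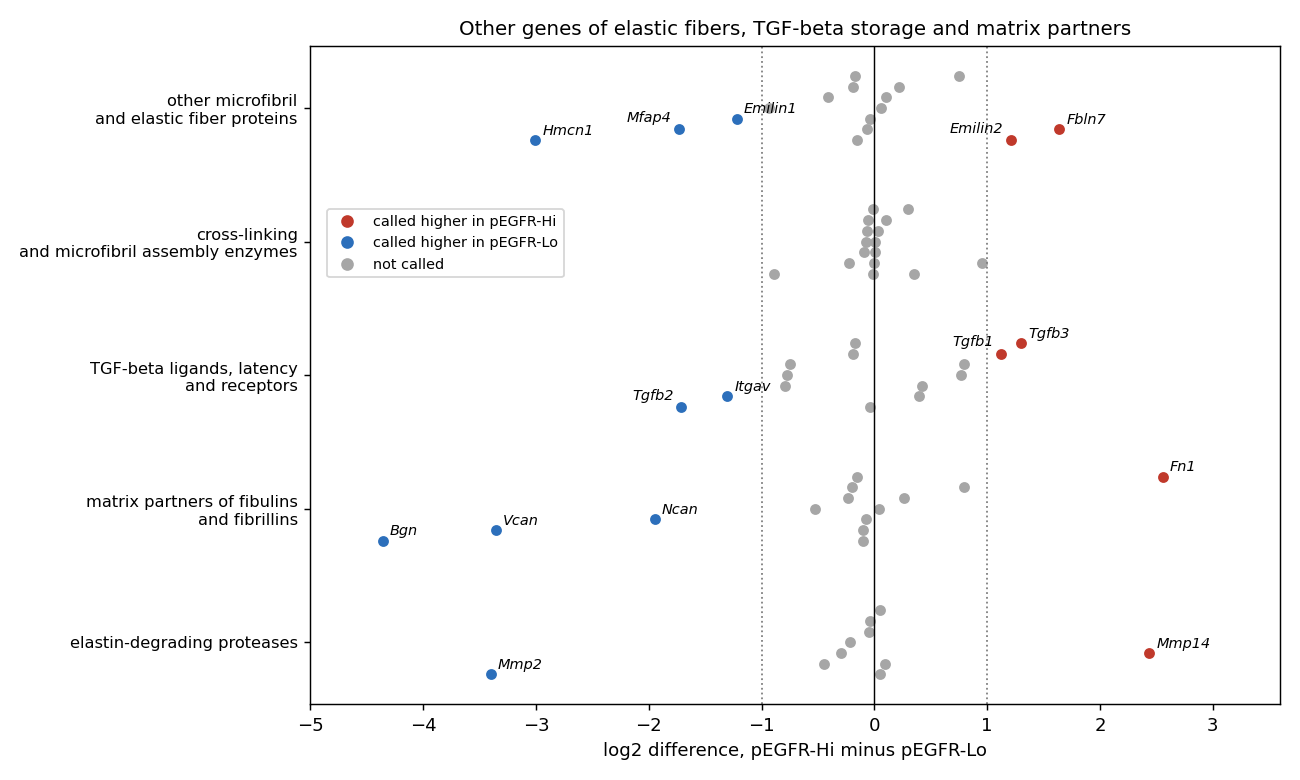
Difference (log2, pEGFR-Hi minus pEGFR-Lo) for the 70 genes of the 5 lists of related genes (points, spread vertically within a list for legibility), with dotted lines at 2-fold and called genes named. The 6 genes called higher in pEGFR-Hi include Fn1, Mmp14 and Fbln7, and the 9 called higher in pEGFR-Lo include Bgn, Mmp2 and Vcan, while no cross-linking enzyme is called.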

How the data were processed

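RNA of sorted ZsGreen-tagged cells from 6 pEGFR-Hi and 6 pEGFR-Lo mice was hybridized to Affymetrix Mouse Gene 1.0 ST arrays. The authors deposited log2 values made with RMA in Affymetrix Expression Console, which corrects background, quantile normalizes and summarizes each probe set. The software version and the build behind the probe sets are not given in the sources used here. Array medians lay between 4.81 and 4.88, the table had no missing value and no pair of identical arrays, and precision is limited by the number of arrays. Groups and replicate numbers came from the sample labels.

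Of 35556 probe sets, 21789 had 1 gene symbol, 1621 several and 12146 none in the annotation used. Those with 1 symbol were used, and symbols were updated for 21698 matched by Entrez ID to RefSeq (GRCm38.p6). For 999 genes with several probe sets the brightest was taken, which left 19938 genes. They were fitted with limma 3.58.1 (lmFit, eBayes) in R 4.3.3 (data.table version 1.17.8), and results were summarised with pandas 2.3.3, numpy 2.4.6 and matplotlib 3.10.9 in Python 3.11.15. The code was tested on simulated data. Where a lower group was below background, the fold was taken against the background level.

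The members and lists were chosen with earlier results of these data known. Named genes were the members, up to 4 called genes per direction of each related list and up to 2 called genes of each marker list, by adjusted p; others are said to be chosen after their values were seen. The paper's methods used SAM with a false discovery rate of 1% and a 2-fold limit. Here SAM with 100 permutations was an alternative. Further alternatives were repeated quantile normalization, array median centring, a replicate block, leaving out genes below background, array weights, eBayes with a robust trend, averaged probe sets, an adjusted p limit of 0.05 without any fold limit, leaving out each mouse, and leaving out pEGFR-Lo replicates 3 and 6.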

Additional observations from a re-analysis of the deposited data

Results flagged for a closer look

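Among the 8 measured family members and 19 named genes of the other lists, 54 groups of 6 mice were examined for a mouse far from the rest of its group by Dixon's ratio (the gap to the nearest mouse over the whole range), with the 95% critical value as the limit, a limit that chance alone passes in about 5% of groups. No family member had such a mouse, and 4 values of other genes did. Tgfb2 in pEGFR-Hi replicate 2 was 5.22 on the log2 scale, with the nearest mouse at 5.04 (ratio 0.638). Vcan in pEGFR-Hi replicate 4 was 6.98, with the nearest at 7.62 (ratio 0.791). P2ry12 in pEGFR-Hi replicate 3 was 5.60, with the nearest at 4.62 (ratio 0.771). Prom1 in pEGFR-Lo replicate 6 was 4.38, with the nearest at 3.78 (ratio 0.653). None of these 4 mice lay within the range of the opposite group for the same gene.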

How the results depend on the processing

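Of the family, 1 gene was called toward pEGFR-Hi and 2 toward pEGFR-Lo with SAM, with each normalization, variance and weighting alternative, without each mouse in turn, and without pEGFR-Lo replicates 3 and 6. An adjusted p limit of 0.05 without a fold limit gave 2 family members higher in pEGFR-Hi (Eln, 0.38, was added) and also passed Fbln1 at −0.29 in the other direction, with 3871 and 3314 of all genes higher in pEGFR-Hi and pEGFR-Lo. Fbln1 had adjusted p-values from 0.0082 to 0.0898 over its alternatives and stayed under 2-fold in each. Leaving out single mice moved the Fbln5 difference from −0.023 (without pEGFR-Hi replicate 5) to 0.27 and that of Efemp1 from −0.085 to 0.0016 (without pEGFR-Hi replicate 3); both were far from the threshold throughout, and Efemp1 was not among the genes tested when those below background were left out. At the 99th percentile the background level was 4.85. Over all genes SAM called 800 and 1009, and leaving out a mouse gave 774 to 846 and 991 to 1031.

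Same-numbered mice did not deviate together (correlations from −0.172 to 0.119), so the numbers were not taken to pair them. With the replicate block the counts were 1 and 2 for the family and 801 and 1008 for all genes. SAM and leaving out single mice for the lists, and every alternative for named genes outside the family, were added after seeing the data. The arrays cannot resolve Efemp1, which lies below background, and no result here extends beyond 1 line per tumor type.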
